A study of Mus musculus with 9 samples.

Results

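The 10 genes described here encode secreted factors that steer blood vessels: the vascular endothelial growth factors Vegfa, Vegfb, Vegfc and Pgf, the angiopoietins Angpt1 and Angpt2, the class 3 semaphorins Sema3a and Sema3c, and the platelet-derived growth factors Pdgfa and Pdgfb. They were taken by symbol from a deposited table of 55357 mouse genes, and 10 of 10 symbols were found, each once. The values are TPM, transcript abundances per unit of transcript length scaled to a fixed sum per library, so levels can be set side by side between genes. Drosha was targeted with the shRNA sh7 in 2 libraries and with the shRNA sh5 in 1, and 2 further libraries held an empty vector (EV, genotype WT in the labels). The cells of every library were SV40-MES-13, an established mouse kidney line labelled as mesangial and carrying SV40 sequences, and were infected with a lentivirus in culture. The shRNA libraries are titled as knockouts, while the protocols describe knockdown. Whether the cells were clones or pools, and how long after infection RNA was taken, is not given in the sources used here. Small RNA was profiled in 4 more libraries, not analysed here. In such bulk RNA, fewer cells of a type and less RNA per cell cannot be told apart.

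Vessels grow toward VEGF, which endothelial cells sense through the receptor tyrosine kinases Flt1, Kdr and Flt4, with neuropilins as co-receptors. Angiopoietins act on the endothelial receptor Tek, semaphorins of class 3 act through neuropilins and plexins and mostly repel cells, and PDGF acts on Pdgfra and Pdgfrb. In the glomerulus, VEGF-A from podocytes keeps the capillary endothelium alive, and PDGF-B from endothelial cells draws in mesangial cells, which carry Pdgfrb and hold the capillary loops together. The series title places the formation of capillary tufts, and mesangial Drosha, at the centre of the question. The Drosha protein trims long microRNA precursors in the nucleus.

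The knockdown groups differ by the Drosha sequence that each shRNA targets, which the protocols give. They are shown because every comparison below is drawn between them, and their longest shared run is 4 bases.
sh-7 (19 bases): gtgtgcccattgaaataaa
sh-5 (21 bases): cctggaatatgtccacacttt
As a check of the labels, Drosha itself stood at 8.39 and 14.9 TPM with sh7, at 36.0 TPM with sh5 and at 60.0 and 56.4 TPM with EV, so the level was lowest with sh7 and intermediate with sh5.

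The promoter sequences of 4 members are shown next, because they form pairs of related factors in which 1 partner was well expressed in these cells and the other close to 0 TPM. They are RefSeq windows of GRCm38.p6, 300 bases long, with 250 bases before and 50 after the annotated start, printed 5′ to 3′ on the gene's strand with each CG dinucleotide in capitals. Of the 10 members 7 matched the table, with 10 windows in all, and the start that these cells use is not known from TPM.
Sema3c, chr5:17574566-17574865, plus strand: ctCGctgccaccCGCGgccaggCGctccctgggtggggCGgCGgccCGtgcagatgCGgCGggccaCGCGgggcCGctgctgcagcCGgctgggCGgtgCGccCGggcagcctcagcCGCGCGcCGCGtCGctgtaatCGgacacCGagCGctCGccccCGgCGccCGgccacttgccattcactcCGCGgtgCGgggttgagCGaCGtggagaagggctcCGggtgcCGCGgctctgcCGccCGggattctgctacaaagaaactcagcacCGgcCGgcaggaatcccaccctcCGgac
Sema3a, chr5:13396534-13396833, plus strand: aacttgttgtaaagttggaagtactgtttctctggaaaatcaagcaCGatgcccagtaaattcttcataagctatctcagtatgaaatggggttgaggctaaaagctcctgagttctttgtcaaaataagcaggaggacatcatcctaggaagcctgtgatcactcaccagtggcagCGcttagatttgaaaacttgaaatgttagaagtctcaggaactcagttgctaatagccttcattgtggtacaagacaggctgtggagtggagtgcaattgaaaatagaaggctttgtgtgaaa
Vegfb, chr19:6987602-6987901, minus strand: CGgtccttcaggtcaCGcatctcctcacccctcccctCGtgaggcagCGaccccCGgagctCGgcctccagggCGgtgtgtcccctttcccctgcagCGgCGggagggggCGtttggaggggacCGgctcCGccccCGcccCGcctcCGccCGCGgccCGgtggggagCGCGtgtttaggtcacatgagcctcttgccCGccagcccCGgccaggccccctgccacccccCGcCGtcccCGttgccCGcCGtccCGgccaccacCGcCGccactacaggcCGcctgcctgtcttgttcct
Vegfc, chr8:54077282-54077581, plus strand: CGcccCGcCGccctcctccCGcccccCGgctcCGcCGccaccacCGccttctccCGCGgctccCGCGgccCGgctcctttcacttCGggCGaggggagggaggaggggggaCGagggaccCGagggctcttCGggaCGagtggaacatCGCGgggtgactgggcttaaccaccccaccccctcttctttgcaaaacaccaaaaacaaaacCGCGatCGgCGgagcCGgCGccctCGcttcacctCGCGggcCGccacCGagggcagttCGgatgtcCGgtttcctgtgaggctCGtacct
The Sema3c window holds 42 CG dinucleotides and the Sema3a window 2, against a median of 7 over 32851 windows of the same length. The Vegfb window holds 31 and the Vegfc window 35, so this pair is alike in CG content although its levels lie far apart. CG is its own reverse complement and was found in 94.6% of all windows. The GC box GGGCGG, searched on both strands and containing a CG, was in 8 of the 10 member windows and 35.7% of all windows. ACGTG, the core of the hypoxia response element, likewise holds a CG. It was in 2 member windows (the second Vegfa window and Sema3c) on either strand, against 19.6% of all windows. The first Vegfa window (chr17:46032328-46032627, minus strand) held 0. The second (chr17:46025114-46025413, minus strand) lies downstream of the first. TATAAA was in 0 member windows on either strand, against 13.6% of all windows. A match is a string of letters and says nothing of what binds there.

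**Figure D1:**
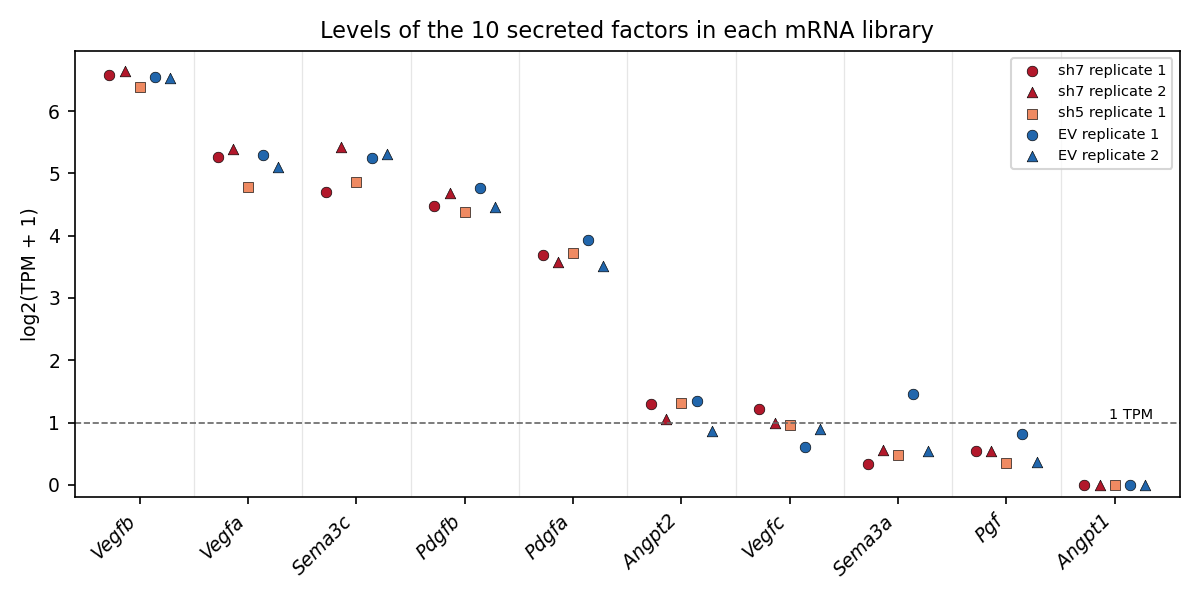
Level of each of the 10 factors on the log2(TPM + 1) scale, 1 point per library, with the factors ordered by their mean over the 5 libraries. Vegfb lies highest, 4 further factors lie between 10.4 and 42.0 TPM, and the remaining 5 lie between 0 and 1.75 TPM.

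In every library the 5 more abundant factors lay clear of the other 5, with overlaps inside each set. Vegfb, a ligand of Flt1, was the most abundant member, with 94.7 and 98.6 TPM in sh7, 83.1 TPM in sh5 and 92.8 and 91.6 TPM in EV. Its range did not overlap that of any other member. Vegfa, the main growth factor for endothelial cells, and Sema3c, a semaphorin that binds neuropilins, followed with means over the 5 libraries of 35.3 and 34.2 TPM. The ranges of these 2 genes overlapped, from 26.6 to 40.9 TPM for Vegfa and from 25.0 to 42.0 TPM for Sema3c, so their order is not resolved. Pdgfb (19.8 to 26.2 TPM) lay below Vegfa in range and overlapped the low end of Sema3c. Pdgfa, at 10.4 to 14.3 TPM, lay below all of these. Vegfb, Vegfa and Sema3c together made up 81.1% and 82.5% of the summed TPM of the 10 genes in sh7, 79.7% in sh5 and 78.8% and 82.9% in EV.

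The other 5 members were near the floor of the table. Angpt2, the context-dependent antagonist of Tek, was at 0.812 to 1.53 TPM, and Vegfc, the lymphatic growth factor that binds Flt4, at 0.529 to 1.33 TPM. Sema3a, which repels endothelial cells through neuropilin 1, lay between 0.259 and 1.75 TPM, and Pgf, a ligand of Flt1, between 0.279 and 0.762 TPM. The ranges of these 4 genes overlapped in every pairing except Angpt2 with Pgf. Angpt1, the Tek agonist, was listed at 0 in 5 of 5 libraries, and a listed 0 can be a failed estimate. TPM keep no read depth, so no counting error can be attached to these low values. Of the 10 members, 6 averaged 1 TPM or more across the libraries and entered the tests.

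Ratios between factors within a library do not change when a library is multiplied by a factor. Vegfb exceeded Vegfa 2.54- and 2.41-fold in sh7, 3.13-fold in sh5 and 2.42- and 2.74-fold in EV. Pdgfb exceeded Pdgfa 1.78- and 2.26-fold in sh7, 1.62-fold in sh5 and 1.83- and 2.03-fold in EV. The sh5 library thus held the highest ratio of Vegfb to Vegfa and the lowest ratio of Pdgfb to Pdgfa. Some library must hold each extreme of any ratio, and the share over other pairs of genes was not computed. Sema3c stood to Vegfa at 0.671 and 1.03 in sh7, 1.05 in sh5 and 0.967 and 1.16 in EV, with sh7 replicate 1 apart from the rest.

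**Figure D2:**
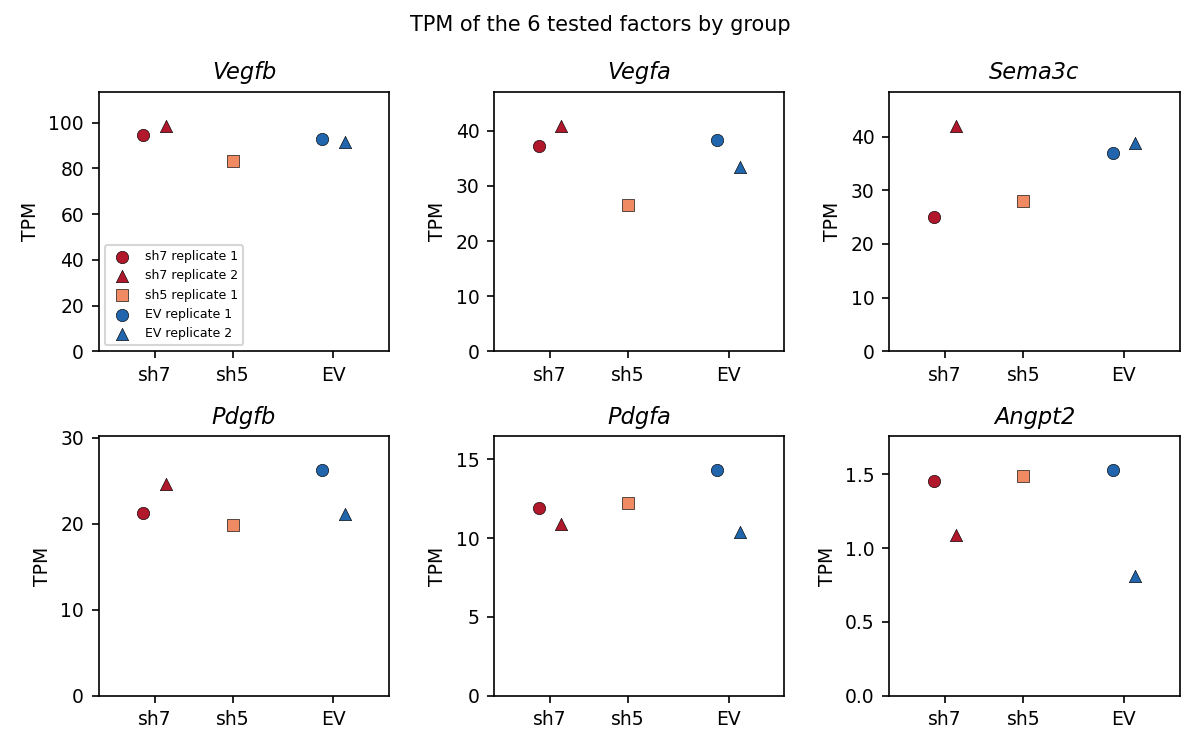
TPM of the 6 factors that entered the tests, 1 point per library, in sh7, sh5 and EV. For Vegfa the sh5 library at 26.6 TPM lies under the other 4, and for Sema3c the sh7 libraries lie at 25.0 and 42.0 TPM, on both sides of EV.

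With sh7, the construct that left least Drosha mRNA, none of the 6 tested factors passed the threshold (limma on log2(TPM + 1), Benjamini-Hochberg adjustment over 12728 genes). The smallest adjusted p among them was 0.647, and 0.0157% of all tested genes were called. At an unadjusted p under 0.05 there were 0 of 6 factors, against 10.3% of all tested genes higher and 4.15% lower. The median log2 difference was 0.014 over the 6 factors and 0.089 over all tested genes. Vegfb lay above both EV libraries in both sh7 libraries, as did 35.8% of all tested genes, and 0 of 6 members lay below, against 14.3%. Under median-of-ratios scaling these shares were 22.1% above and 25.4% below, under quantile normalization 21.3% and 25.3%, and Vegfb then overlapped EV under both.

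The sizes that remain possible for sh7 differ between the factors. For Vegfb, at 96.6 ± 2.79 TPM in sh7 and 92.2 ± 0.855 TPM in EV (SD, n = 2 each), the log2 difference was 0.067 (SE 0.080). Its 95% interval on the log2(TPM + 1) scale reached from 0.908-fold to 1.21-fold. Vegfa was at 37.2 and 40.9 TPM in sh7 against 38.3 and 33.4 TPM in EV, groups that overlap. Its log2 difference was 0.12 (SE 0.12), with an interval from 0.878-fold to 1.35-fold. Both intervals include no change.

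On the log2(TPM + 1) scale Sema3c was the member on which the sh7 libraries differed most. It was at 25.0 and 42.0 TPM in sh7, against 37.0 and 38.9 TPM in EV, so 1 sh7 library lay below and the other above both controls. The sh7 mean was 33.5 ± 12.0 TPM and the EV mean 37.9 ± 1.29 TPM (SD, n = 2 each), with a log2 difference of -0.22 (SE 0.25, adjusted p = 0.705). Without sh7 replicate 1 the difference was 0.14, and without sh7 replicate 2 it was -0.58, so a single library decides its direction. The sh7 replicates differed by 0.73 log2 units for Sema3c, against 0.067 log2 units between the EV replicates, where EV replicate 2 was the higher.

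Both PDGF ligands overlapped between sh7 and EV. Pdgfb, which recruits pericytes and mesangial cells, was at 21.2 and 24.6 TPM in sh7 and 26.2 and 21.1 TPM in EV. Pdgfa, the ligand of Pdgfra, was at 11.9 and 10.9 TPM in sh7 and 14.3 and 10.4 TPM in EV. In both cases the sh7 libraries lay inside the span of the EV libraries. The log2 differences were -0.039 (SE 0.16) for Pdgfb and -0.089 (SE 0.19) for Pdgfa. Angpt2 was at 1.46 and 1.09 TPM in sh7 against 1.53 and 0.812 TPM in EV, with a log2 difference of 0.081 (SE 0.30), and it too stayed inside the EV span.

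**Figure D3:**
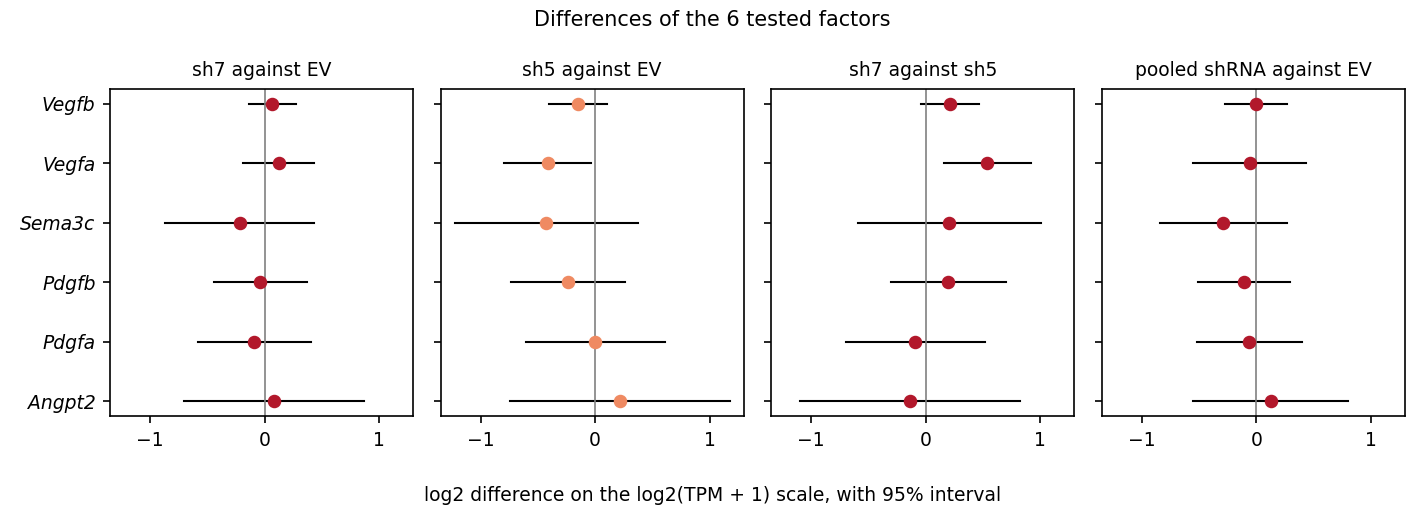
Log2 differences of the 6 tested factors on the log2(TPM + 1) scale with 95% intervals from limma, in a panel for each comparison. Vegfa is at -0.41 for sh5 against EV and 0.54 for sh7 against sh5, and these are the only intervals among the 24 shown that leave out 0.

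In the sh5 library 4 of the 6 tested factors lay below both EV libraries: Vegfa, Vegfb, Sema3c and Pdgfb. Of all tested genes 43.7% lay below and 26.9% above both EV libraries. Under median-of-ratios scaling the same 4 factors lay below, against 33.8% of all tested genes, and Angpt2 above, against 38.1%. Under quantile normalization Vegfa, Vegfb and Sema3c lay below, against 33.0%, and Angpt2 above, against 36.8%. Vegfa was at 26.6 TPM in sh5, against 38.3 and 33.4 TPM in EV, and it was the lowest of the 5 libraries. The log2 difference was -0.41 (SE 0.15), with a 95% interval of -0.79 to -0.036 and an unadjusted p of 0.0375. It did not pass over all genes by limma (adjusted p = 0.514). Vegfa was the 1 factor of 6 at an unadjusted p under 0.05, where 7.96% of all tested genes were lower and 1.59% higher in sh5. The difference was -0.33 under median-of-ratios scaling (unadjusted p = 0.0556) and -0.32 under quantile normalization (unadjusted p = 0.0812), and -0.32 without EV replicate 1 (unadjusted p = 0.0865), so 0 of 6 factors were under 0.05 by the limma fit in these settings.

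The other factors of the sh5 library also stayed short of the threshold, and over all tested genes limma called 0%. Sema3c was at 28.0 TPM in sh5 against 37.0 and 38.9 TPM in EV, Vegfb at 83.1 TPM against 92.8 and 91.6 TPM, and Pdgfb at 19.8 TPM against 26.2 and 21.1 TPM. The log2 differences were -0.43 (SE 0.31) for Sema3c, -0.15 (SE 0.098) for Vegfb and -0.24 (SE 0.19) for Pdgfb. Pdgfa at 12.2 TPM and Angpt2 at 1.49 TPM lay between the EV libraries. With the single sh5 library its spread had to be taken from the other groups. The median log2 difference was -0.19 over the 6 factors and -0.054 over all tested genes.

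Set against sh5, the sh7 libraries held more Vegfa mRNA in both replicates, with 37.2 and 40.9 TPM in sh7 and 26.6 TPM in sh5. The log2 difference was 0.54 (SE 0.15), the 95% interval ran from 0.16 to 0.92 and the adjusted p was 0.163 by limma, so the difference did not pass over all genes. The median over all tested genes was 0.16 in this comparison. Median-of-ratios scaling moved that median by -0.17 and quantile normalization by -0.19, and the Vegfa difference was then 0.35 and 0.34. Of the 6 factors 3 lay above sh5 in both sh7 libraries (Vegfa, Vegfb and Pdgfb), against 58.5% of all tested genes, and 2 lay below (Angpt2 and Pdgfa), against 23.9%. Under median-of-ratios scaling the shares of all genes were 38.8% above and 42.6% below and under quantile normalization 35.9% and 43.7%, with Vegfa and Vegfb still above and Angpt2 and Pdgfa still below under both. By limma 0 of 6 factors were called, against 0.0157% of all tested genes. Vegfa alone had an unadjusted p under 0.05 (0.0151), as had 17.1% of all tested genes in the higher and 3.56% in the lower direction.

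Taking the 3 shRNA libraries as 1 arm against EV, 0 of the 6 factors were called and 0.0236% of all tested genes were. At an unadjusted p under 0.05 there were 0 of 6 factors, against 2.43% of all tested genes higher and 1.33% lower. The log2 differences ran from -0.29 (SE 0.23) for Sema3c to 0.13 (SE 0.28) for Angpt2, with -0.057 (SE 0.20) for Vegfa and -0.0042 (SE 0.11) for Vegfb. No tested member stood clear of EV in all 3 shRNA libraries in either direction, where 12.0% of all tested genes lay above and 7.20% below. The median was -0.058 over the 6 factors and 0.029 over all tested genes. The summed TPM of the 10 genes was 193.6 and 220.03 in sh7, 172.8 in sh5 and 213.2 and 197.7 in EV, with the sh5 library lowest.

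Among the members under the filter, Vegfc was at 1.33 and 0.980 TPM in sh7, 0.956 TPM in sh5 and 0.529 and 0.855 TPM in EV. It was higher in 3 of 3 shRNA libraries than in either EV library, and EV replicate 1 was its lowest library. Of the tested genes 12.0% had this arrangement, and the share among genes under the filter was not computed. A limma fit with no filter over 27297 genes gave a pooled log2 difference of 0.31 (SE 0.19, adjusted p = 0.908), which did not pass. Sema3a was at 0.259 and 0.474 TPM in sh7, 0.387 TPM in sh5 and 1.75 and 0.460 TPM in EV. Its high value came from EV replicate 1 alone, while EV replicate 2 lay among the shRNA libraries, and the log2 difference of the pooled arm was -0.55 (SE 0.30, adjusted p = 0.908). Pgf showed the same arrangement, with 0.449 and 0.459 TPM in sh7, 0.279 TPM in sh5 and 0.762 and 0.294 TPM in EV.

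EV replicate 1 stood apart in other genes as well. The summed TPM of 14 type I interferon stimulated genes was 4402 and 4302 in sh7, 1854 in sh5 and 225 and 2598 in EV, with EV replicate 1 lowest. Its part in the values of Sema3a and Pgf was not tested. Between the EV replicates, Angpt2 differed by 0.48 log2 units, Pdgfa by 0.43, Pdgfb by 0.30 and Vegfa by 0.19, each higher in EV replicate 1, while Vegfb differed by 0.019. For Pdgfa and Pdgfb these gaps exceeded the shift of both shRNA contrasts against EV. Over the 5 libraries Vegfb had a range of 0.24 log2 units, and 13.5% of tested genes had a smaller one. Sema3c had a range of 0.73 log2 units, and 71.8% of tested genes had a smaller one. The median range over all tested genes was 0.50 log2 units.

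**Figure D4:**
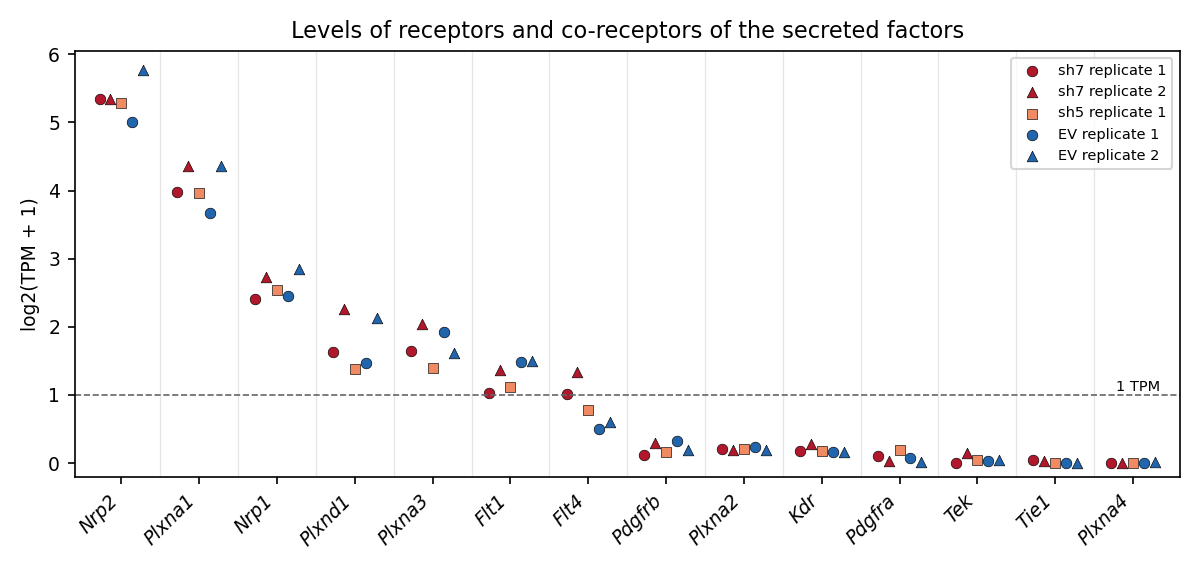
Levels of 14 receptors and co-receptors of the secreted factors on the log2(TPM + 1) scale, 1 point per library. Nrp2 and Plxna1 lie highest, and Kdr, Tek, Tie1, Pdgfra and Pdgfrb lie below 0.3 TPM in the 5 libraries.

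The receptors of the VEGF, angiopoietin and PDGF ligands were low in the same cells, while neuropilins and a plexin were not. Of 14 receptors and co-receptors 6 averaged 1 TPM or more, and 7 were under 1 TPM in every library. Kdr, the main signalling receptor for VEGF-A, was at 0.128 and 0.215 TPM in sh7, 0.131 TPM in sh5 and 0.114 and 0.115 TPM in EV. Pdgfrb, the receptor of PDGF-B, was at 0.0899 and 0.224 TPM in sh7, 0.120 TPM in sh5 and 0.251 and 0.139 TPM in EV, so Pdgfb was expressed while its receptor was near 0. The semaphorin co-receptor Nrp2 was the highest of the 14, with 39.7 and 39.6 TPM in sh7, 37.8 TPM in sh5 and 31.2 and 53.4 TPM in EV. Plxna1, a signalling partner of neuropilins, was at 14.8 and 19.5 TPM in sh7, 14.6 TPM in sh5 and 11.7 and 19.5 TPM in EV, and Nrp1 at 4.29 and 5.61 TPM in sh7, 4.84 TPM in sh5 and 4.48 and 6.22 TPM in EV. In each of these 3 genes the EV libraries spanned the shRNA libraries or overlapped them.

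By limma 0 of the 6 tested receptors passed in any of the 4 comparisons, against at most 0.0236% of all tested genes. An unadjusted p under 0.05 was reached by 0 of 6. Over the 4 comparisons 1.59% to 17.1% of all tested genes reached it in the higher and 1.33% to 7.96% in the lower direction. Flt1, the receptor of VEGF-A, VEGF-B and PlGF, was at 1.03 and 1.58 TPM in sh7, 1.17 TPM in sh5 and 1.80 and 1.81 TPM in EV. It lay below EV in 3 of 3 shRNA libraries, as did 7.20% of all tested genes. Its pooled log2 difference was -0.32 (SE 0.25, adjusted p = 0.925). The median log2 difference of the 6 receptors in the pooled arm was -0.068. Flt4, the receptor of VEGF-C, was under the filter at 1.01 and 1.52 TPM in sh7, 0.720 TPM in sh5 and 0.420 and 0.522 TPM in EV. It was higher in 3 of 3 shRNA libraries than in either EV library, and EV replicate 1 was its lowest library. This arrangement was found in 12.0% of the tested genes, and its share among genes under the filter was not computed.

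**Figure D5:**
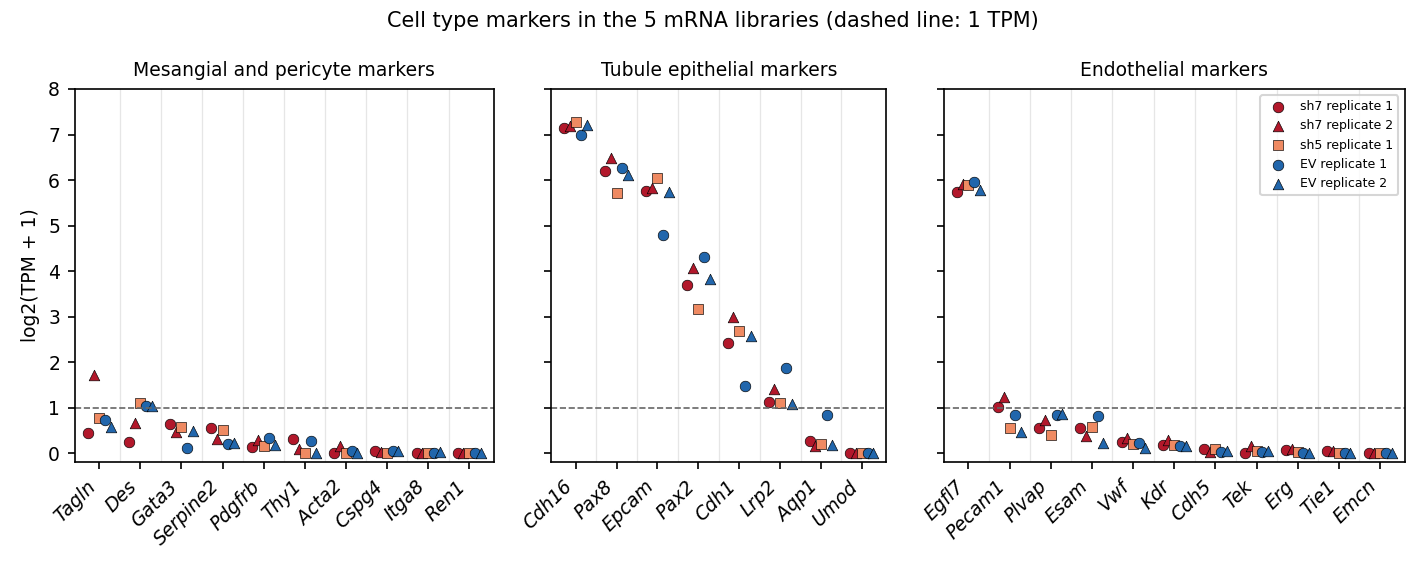
Levels of mesangial and pericyte, tubule epithelial and endothelial markers on the log2(TPM + 1) scale, 1 point per library. The tubule genes Cdh16, Pax8 and Epcam lie above every mesangial marker in the 5 libraries, while the tubule genes Aqp1 and Umod lie under 1 TPM.

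The libraries did not carry the markers that would place these factors in a mesangial cell. Of 10 mesangial and pericyte markers 0 averaged 1 TPM or more, and their sum was 1.95 and 3.94 TPM in sh7, 2.88 TPM in sh5 and 2.46 and 2.29 TPM in EV. The defining genes Itga8 and Pdgfrb were at or near 0. Of 8 tubule epithelial markers 6 passed the filter, and the sum of the 8 was 284 and 313 TPM in sh7, 285 TPM in sh5 and 252 and 287 TPM in EV. Cdh16 held the largest part of that sum, with a mean of 143 TPM. Lrp2 averaged 1.55 TPM and Aqp1 0.278 TPM, and Umod was listed at 0 in every library. Among 11 endothelial markers 9 were under 1 TPM in every library, and Emcn was listed at 0 in all. Egfl7 alone passed the filter, with a mean of 57.0 TPM, and held most of the sum of the 11. That sum was 55.0 and 62.6 TPM in sh7, 59.6 TPM in sh5 and 63.8 and 55.2 TPM in EV. Podocyte markers were low apart from Podxl (1 of 7 passed), and of 6 leukocyte markers Cd68 and Csf1r passed while Adgre1 and Cd3e were listed at 0. The part of these other cell type markers in the levels of the 10 factors was not tested.

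Further ligands that act on vessels gave the same count of calls as the 10 members. Of 28 such genes 15 were tested and 0 passed by limma in any comparison, against at most 0.0236% of all tested genes. Their pooled median log2 difference was 0.099. Angptl4, a secreted lipase inhibitor that also acts on endothelium, was at 14.5 and 14.0 TPM in sh7, 15.8 TPM in sh5 and 4.50 and 9.53 TPM in EV. It stood above EV in 3 of 3 shRNA libraries, as did 12.0% of all tested genes. Its pooled log2 difference was 1.05 (SE 0.29) with an adjusted p of 0.908. Vegfd, the closest relative of Vegfc, was at 7.23 and 9.32 TPM in sh7, 7.23 TPM in sh5 and 10.2 and 9.88 TPM in EV. It was below EV in 3 of 3 shRNA libraries, as were 7.20% of all tested genes (log2 -0.31, SE 0.18, adjusted p = 0.908). Efnb2, an arterial ephrin, was at 3.35 and 4.13 TPM in sh7, 6.73 TPM in sh5 and 5.17 and 9.14 TPM in EV. Both sh7 libraries lay below both EV libraries, as did 14.3% of all tested genes, and below sh5, as did 23.9%. By limma its log2 difference for sh7 against EV was -0.74 (SE 0.29, adjusted p = 0.348). For the pooled arm it was -0.51 (SE 0.34, adjusted p = 0.916).

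Extracellular inhibitors of angiogenesis spanned a wide range of levels. Pf4 was listed at 0 in every library, Thbs2, Serpinf1 and Vash1 averaged under 1 TPM, and Sparc averaged 379 TPM. Of 11 such genes 7 were tested and 0 passed in any comparison, against at most 0.0236% of all tested genes. Their pooled median was -0.0062. Col18a1, whose cleavage releases endostatin, was at 75.5 and 100.3 TPM in sh7, 83.1 TPM in sh5 and 118 and 112 TPM in EV. It was below EV in 3 of 3 shRNA libraries, as were 7.20% of all tested genes (log2 -0.42, SE 0.14, adjusted p = 0.908). Adamts1, a protease that binds VEGF-A, was at 35.1 and 70.6 TPM in sh7, 21.6 TPM in sh5 and 81.5 and 51.6 TPM in EV. The sh5 library was its lowest, and the pooled log2 difference was -0.76 (SE 0.48, adjusted p = 0.908). The angiostatic chemokine Cxcl10, an interferon-induced gene, was at 511 and 412 TPM in sh7, 250 TPM in sh5 and 54.4 and 285 TPM in EV, with EV replicate 1 lowest (log2 1.58, SE 0.68, adjusted p = 0.908).

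Hypoxia drives Vegfa transcription in most cells, and a list of hypoxia genes was set beside it. The list mixes usual target genes with regulators of the response, such as Hif1a, Epas1, Arnt and Vhl. All 16 genes of the hypoxia list were tested and 0 passed in any of the 4 comparisons, against at most 0.0236% of all tested genes. Their pooled median log2 difference was 0.042. Ndrg1 was at 59.9 and 56.8 TPM in sh7, 62.7 TPM in sh5 and 27.9 and 66.1 TPM in EV, low in EV replicate 1 only (log2 0.47, SE 0.34, adjusted p = 0.919). The glycolytic gene Pgk1 was at 536 and 677 TPM in sh7, 595 TPM in sh5 and 538 and 584 TPM in EV, and the kinase gene Pdk1 at 16.4 and 44.8 TPM in sh7, 24.1 TPM in sh5 and 33.6 and 31.0 TPM in EV. Pgk1, Pdk1 and Ldha of this list split the sh7 replicates in the direction that Sema3c did, with sh7 replicate 1 lowest and sh7 replicate 2 highest. The share of all genes with that order was not computed. Hif1a encodes the oxygen-regulated subunit of the factor, whose protein was not measured here. The gene is named after its values were seen. Its mRNA was at 80.5 and 83.4 TPM in sh7, 61.4 TPM in sh5 and 80.9 and 72.6 TPM in EV. Its log2 difference for sh5 against EV was -0.32 (SE 0.12, adjusted p = 0.520). In that contrast 12 of the 16 genes lay under 0 and 4 above it, with Ndrg1 highest at 0.53. The median was -0.11 over the 16 genes and -0.054 over all tested genes. Of the 16 genes 8 lay below both EV libraries in sh5 and 1 above, against 43.7% and 26.9% of all tested genes.

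Genes with a profile most like that of a member were sought by the root-mean-square difference of centred log2(TPM + 1) over the 5 libraries, among 9508 named genes averaging 5 TPM or more. The search was made for Sema3c and Vegfa, the members of at least 5 TPM with the widest range. Nearest to Vegfa were Wwc2 (0.0090 log2 units), Snhg4 (0.016) and Nsd3 (0.017). Wwc2 was at 22.6 and 24.7 TPM in sh7, 16.2 TPM in sh5 and 23.3 and 20.3 TPM in EV, a profile with the same low point in sh5. Nearest to Sema3c were the plexin gene Plxnb1 (0.091), the basement membrane gene Hspg2 (0.097) and H2-DMa (0.0996). Hspg2 was at 20.2 and 32.4 TPM in sh7, 20.5 TPM in sh5 and 27.5 and 25.5 TPM in EV, so it too was split between the sh7 replicates. These are descriptions of 5 libraries that share their scaling.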

How the data were processed

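Poly(A) RNA of 5 libraries was analysed. The authors deposited TPM per gene, each library summing to 1000000 TPM, and the submitters' processing notes name kallisto 0.48.0. Which genome build and annotation were used, and how transcripts were combined, is not given in the sources used here. TPM keep no depth, so no counting error or detection limit was derived. Between 20280 and 22045 genes lay above 0 TPM per library.

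Groups were taken from the sample titles. Tests were two-sided, with limma 3.58.1 in R 4.3.3 (lmFit, then eBayes with its trend option) on log2(TPM + 1), a pseudocount of 1 TPM, for the 12728 genes that averaged 1 TPM or more. Adjustment was by Benjamini-Hochberg over all of them, and 0.05 was the threshold. Fold changes refer to that scale and understate the change of low genes. The pooled comparison had 3 residual degrees of freedom, and the model with sh7, sh5 and EV as 3 groups had 2. No label places the replicates in separate cultures, so the p-values reflect the spread among these samples alone, and that spread may be technical.

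The members and gene lists were chosen with earlier results of these data known. All 10 members are named. From each further list the rule names genes past the threshold and the 3 tested genes whose unadjusted p was lowest with the shRNA libraries pooled, and receptors may be named for their level. Alternatives were pseudocounts of 0.1 and 0.5, no filter or a filter at 5 TPM, median-of-ratios scaling, quantile normalization, no trend, a replicate block, the mean of the sh7 and sh5 effects in place of the pooled arm, and each library left out.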

Additional observations from a re-analysis of the deposited data

How the results depend on the processing

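The count of member genes called was 0 in each of the 4 comparisons under every alternative that was run, including the replicate block and each library left out in turn. Of 302 values of single members under an alternative, 279 kept their direction and 0 passed the threshold, and the cause of the changes of direction was not tested. Many of the 302 could not change direction. The filters and the trend option leave a log2 difference as it was, as does leaving out a library outside the comparison. The replicate block also leaves sh7 against EV unchanged. The count of kept directions is therefore no measure of stability. The replicate numbers pair no samples in the labels, and the deviations of same-numbered EV and sh7 libraries correlated at -0.016 over 12728 genes, so the block was used as an alternative only. With the replicate block the log2 difference turned to 0.0089 for Vegfb in the pooled comparison, -0.14 for Pdgfa in sh5 against EV, and 0.043 for Angpt2 and 0.046 for Pdgfa in sh7 against sh5. Under quantile normalization it turned to -0.14 for Angpt2 in sh7 against EV and -0.039 for Pdgfb in sh7 against sh5, and under median-of-ratios scaling to -0.035 for Vegfb in sh7 against EV. Quantile normalization moved the median of all genes by -0.11 for sh7 against EV.

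With a library left out, the pooled log2 difference ranged from -0.18 to 0.12 for Vegfa and -0.055 to 0.067 for Vegfb. The ranges were -0.11 to 0.37 for Angpt2, -0.27 to 0.16 for Pdgfa and -0.26 to 0.046 for Pdgfb. For Sema3c the pooled difference ranged from -0.50 (without sh7 replicate 2) to -0.14 (without sh7 replicate 1). For sh7 against EV the log2 difference ranged from -0.16 to 0.32 for Angpt2 and -0.30 to 0.13 for Pdgfa. It ranged from -0.19 to 0.11 for Pdgfb and 0.027 to 0.22 for Vegfa. In each of these genes the lowest value came without EV replicate 2 and the highest without EV replicate 1. For Sema3c the log2 difference ranged from -0.58 (without sh7 replicate 2) to 0.14 (without sh7 replicate 1). For sh5 against EV it ranged from -0.023 to 0.46 for Angpt2, -0.21 to 0.22 for Pdgfa and -0.39 to -0.087 for Pdgfb (without EV replicate 2 and without EV replicate 1). For sh7 against sh5 it ranged from -0.16 to 0.57 for Sema3c and 0.097 to 0.30 for Pdgfb (without sh7 replicate 2 and without sh7 replicate 1), and from -0.25 to -0.019 for Angpt2 and -0.15 to -0.031 for Pdgfa (without sh7 replicate 1 and without sh7 replicate 2). A lone library left in a group was assumed to vary like the others. With a library left out Vegfa stayed between -0.51 and -0.32 for sh5 against EV and between 0.47 and 0.60 for sh7 against sh5.

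Over all genes, sh7 against EV gave 2 calls, and 281 without EV replicate 2, 19 without a trend, 4 with a filter at 5 TPM, 1 under either other scaling or lower pseudocount, and 0 with no filter, with the block, or with EV replicate 1 or either sh7 library left out. For sh5 against EV there were 0 calls, 180 with no filter and 59 without EV replicate 2, and for sh7 against sh5 2 calls, 251 with no filter, 4 without either EV library and 0 without a trend, with the block or without either sh7 library. In the pooled comparison there were 3 calls, and 0 with no filter, with the replicate block, without either EV library or without either sh7 library, and 1 with a filter at 5 TPM. With no filter many low genes listed at 0 enter the fit.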

Other observations

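Some vascular ligands outside the 10 members were as abundant as the members, and they are named here after their values were seen. Sema3e, a semaphorin that repels endothelial cells through Plxnd1, was at 28.7 and 30.8 TPM in sh7, 28.5 TPM in sh5 and 27.0 and 37.9 TPM in EV, close in level to Sema3c and Vegfa. The matricellular factor Ccn1 was at 83.7 and 101 TPM in sh7, 96.5 TPM in sh5 and 206 and 60.3 TPM in EV, so its EV replicates lay on both sides of all shRNA libraries. Efna1, a membrane-bound ephrin, was at 23.01 and 18.7 TPM in sh7, 21.5 TPM in sh5 and 15.5 and 21.97 TPM in EV. Fgf2 was at 1.27 and 0.313 TPM in sh7, 0.469 TPM in sh5 and 0.0702 and 0.0474 TPM in EV, above EV in 3 of 3 shRNA libraries and below the filter. Slit2, a guidance ligand of Robo receptors, was at 0.560 and 0.498 TPM in sh7, 0.414 TPM in sh5 and 0.139 and 0.169 TPM in EV, likewise above EV and below the filter. Sema3d, a class 3 semaphorin also below the filter, went the other way, with 0.0738 and 0.0480 TPM in sh7, 0.0291 TPM in sh5 and 0.214 and 0.189 TPM in EV. Of the tested genes 12.0% lay above and 7.20% below EV in all shRNA libraries. These shares were not computed for genes under the filter. Cxcl12 and Hgf were listed at 0 in 5 of 5 libraries. None of the tested genes among these passed in any comparison by limma, against at most 0.0236% of all tested genes.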
